A study of Mus musculus with 8 samples.

Results

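The data describe 8 genes of triglyceride breakdown and storage in neutrophils sorted from mouse spleen. They are the secreted lipases Lipg and Lpl, the intracellular lipases Pnpla2, Lipe, Mgll and Lipa, and the lipid droplet coat proteins Plin2 and Plin3. Lipg was picked by its measured values in the comparison described here. It had the largest rise in Cxcr2-/- libraries among abundant genes that differed without overlap between the groups. Its difference between the groups is therefore given as a description and carries no test. The 7 other genes were chosen by function, as lipases related to Lipg or acting inside the cell and as droplet proteins. All 8 were matched by symbol to 1 Ensembl identifier each, out of 55414 identifiers in the count files, and all 8 were among the 16778 genes left by the filter on low counts. Neutrophils came from the spleen of 4 WT mice and of 4 Cxcr2-/- mice, all on the FVB background, aged 10 weeks and kept in a specific and opportunistic pathogen free facility, with 1 RNAseq library per mouse. They were enriched for CD11b and sorted as CD45+ CD11b+ Ly6G+ F4/80- cells. The Cxcr2-/- mice carry the deletion in all tissues, so that the deletion was not limited to neutrophils, and no agent was given to either group.

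Stored fat is kept as triglyceride and cholesteryl ester in lipid droplets, whose surface is coated by perilipins. Adipose triglyceride lipase (Pnpla2) removes the first fatty acid from a triglyceride, hormone-sensitive lipase (Lipe) the next and monoglyceride lipase (Mgll) the last, while lysosomal acid lipase (Lipa) breaks down the lipids that reach the lysosome. Lipoprotein lipase (Lpl) and endothelial lipase (Lipg) are related secreted enzymes that act on lipoproteins outside the cell, the former mainly on triglyceride and the latter mainly on the phospholipid of high-density lipoprotein. In differentiating neutrophils, fatty acids that are freed from droplets with the help of autophagy feed mitochondrial oxidation.

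Gene counts summed to 34220182 to 46233555 per WT library and 37549648 to 43789253 per Cxcr2-/- library, and the share of reads that met no gene was 31.4% to 41.5% in WT and 26.7% to 31.9% in Cxcr2-/- libraries. Expression is given as CPM, the count on a gene relative to the TMM-normalized size of its library, and a log2 fold change is Cxcr2-/- over WT. Values after ± are SD over the 4 libraries of a group. The test was the quasi-likelihood test of edgeR, adjusted by Benjamini and Hochberg's method over all genes tested. A gene passed where this adjusted p was below 0.05, and it was called when it also changed at least 1.5-fold. Cxcr2, the targeted gene, averaged 1956 ± 221 CPM in the WT libraries and 17.1 ± 3.46 CPM with the deletion (SD, n = 4 each), in the direction of every label. The neutrophil markers S100a8, S100a9, Ly6g, Csf3r, Itgam, Retnlg, Mmp8 and Mmp9 summed to 31078 to 44810.3 CPM in the WT and 67647 to 81577 CPM in the Cxcr2-/- libraries. Markers of neutrophil precursors (Mpo, Elane, Prtn3, Ctsg, Ms4a3, Cd34, Kit, Mki67 and Top2a) summed to 272 to 334 CPM in the WT and 842 to 1186 CPM in the Cxcr2-/- libraries, and 7 of these 9 genes rose, as did 6 of the 8 neutrophil markers. The neutrophil marker Csf3r fell, from 6960 ± 462 to 3334 ± 147 CPM (log2 fold change -1.06, edgeR adjusted p = 1.11e-05). Itgam, Cd34 and Kit did not pass. S100a8 and S100a9 made up most of the neutrophil sum, with means of 28418 and 33865 CPM in the Cxcr2-/- libraries. Mki67 and Top2a made up most of the precursor sum, with means of 569 and 212 CPM in the Cxcr2-/- libraries. In sorted cells analysed in bulk, a change in the share of precursors and a change in RNA per cell cannot be told apart.

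Of the 7 members other than Lipg, 2 rose, 4 fell and Mgll did not pass. Among all genes tested, 23.7% rose and 21.0% fell by the same rule. Plin3 was called higher and Lpl, Lipa and Pnpla2 were called lower, against 15.7% of all genes called higher and 15.7% called lower. For 6 of these 7 members the 4 WT and the 4 Cxcr2-/- libraries did not overlap, as for 41.6% of all genes tested. With upper-quartile normalization the median of all genes moved to -0.11 (log2) from 0.01, and the calls over all genes were 1975 higher and 3227 lower, against 2628 and 2628 with TMM.

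**Figure D1:**
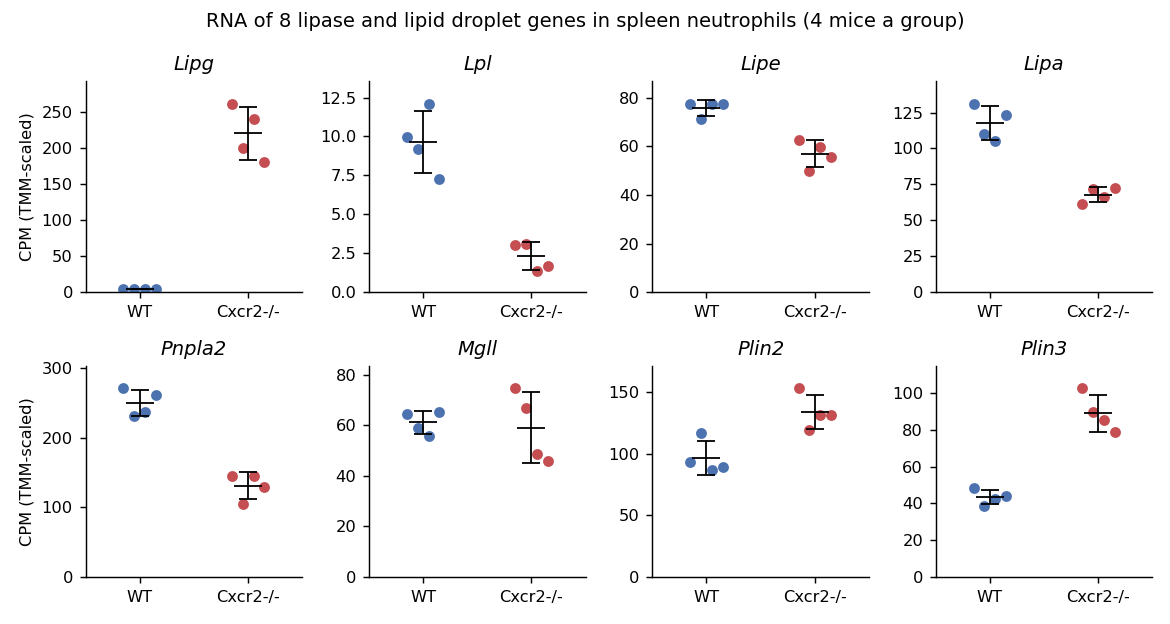
CPM (vertical axes, TMM-scaled, starting at 0) of the 8 genes in each of 4 WT (blue) and 4 Cxcr2-/- (red) libraries. Points are mice and the black bars show mean and SD. Lipg lies at 4.34 to 5.08 CPM in WT and 180.5 to 261 CPM in Cxcr2-/-, and Mgll is the gene whose groups overlap.

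Lipg (endothelial lipase, ENSMUSG00000053846) lies on chromosome 18 from 74939322 to 74961263, reverse strand, of GRCm38. Its values were 5.02, 4.62, 5.08 and 4.34 CPM in WT replicates 1 to 4 and 261, 199.7, 239 and 180.5 CPM in Cxcr2-/- replicates 1 to 4. Every Cxcr2-/- library was far above every WT library, and the spread within WT was narrow. The counts behind these values were 150 to 230 in WT and 7216 to 10327 in Cxcr2-/- libraries, so that the gene was detected in both groups. The means were 4.76 ± 0.348 CPM for WT and 220.1 ± 36.7 CPM for Cxcr2-/- mice (SD, n = 4 each), 46.1-fold apart, a log2 difference of 5.53. Among genes that passed without overlap and with a mean log2 CPM of 5 or more, this value chose Lipg, and the next was Mpo at 4.58. By log2 fold change among all 16778 genes tested, Lipg ranked 6, and the 5 genes above it did not meet all of those limits.

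Lpl, the lipoprotein lipase of heart, muscle, adipose tissue and macrophages, moved the other way. Lpl (ENSMUSG00000015568, chromosome 8 from 68880491 to 68907448, forward strand) was at 9.97, 9.22, 12.1 and 7.26 CPM in the WT replicates and at 3.06, 3.10, 1.37 and 1.70 CPM in the Cxcr2-/- replicates. All Cxcr2-/- values were below the lowest WT value, 4.18-fold lower in the fit (log2 fold change -2.06, standard error 0.26, edgeR adjusted p = 5.17e-05). The gene was low in both groups, with 251 to 459 counts in WT and 54 to 121 counts in Cxcr2-/- libraries. Counted against each other within a library, which no scaling changes, there were 0.503, 0.501, 0.419 and 0.598 Lipg counts per Lpl count in the WT replicates and 85.3, 64.4, 174 and 106 in the Cxcr2-/- replicates. This ratio was formed after the values were seen and was not tested.

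The other genes of the same lipase family were sparse. Besides Lipg, 3 of the 8 family genes listed were tested, and Liph, Lipi, Pnlip, Pnliprp1 and Pnliprp2 were removed by the filter on low counts. Pla1a, a secreted phosphatidylserine phospholipase, was at 6.57, 9.46, 7.94 and 10.2 CPM in the WT and 1.39, 0.692, 1.80 and 1.56 CPM in the Cxcr2-/- replicates, and fell without overlap (log2 fold change -2.64, standard error 0.26, edgeR adjusted p = 6.58e-06). Hepatic lipase (Lipc) was at 0.0578 to 0.321 CPM in the WT and 0.166 to 0.556 CPM in the Cxcr2-/- libraries and did not pass (edgeR adjusted p = 0.128). Of 17 genes for the folding, cleavage, binding and inhibition of extracellular lipases, 7 were tested. Of the 7, 1 rose and 3 fell (14.3% and 42.9%, beside 23.7% and 21.0% of all genes), although their median log2 fold change was above 0, at 0.15, beside 0.01 over all genes. Lmf1, the endoplasmic reticulum factor needed for active Lpl and Lipg, was at 1.35 ± 0.246 CPM in the WT and 1.69 ± 0.802 CPM in the Cxcr2-/- libraries, with overlapping groups (log2 fold change 0.33, standard error 0.31, edgeR adjusted p = 0.423). Lmf2, its relative, rose from 15.5 ± 2.01 to 22.5 ± 2.52 CPM (log2 fold change 0.54, standard error 0.12, edgeR adjusted p = 0.00306). Furin, a proprotein convertase that can cleave both lipases, fell from 568 ± 93.6 to 430.0 ± 53.2 CPM with overlapping groups (log2 fold change -0.40, standard error 0.13, edgeR adjusted p = 0.0268), and the heparan sulfate proteoglycan Sdc4 fell from 1.64 ± 0.554 to 0.452 ± 0.274 CPM (log2 fold change -1.85, standard error 0.44, edgeR adjusted p = 0.00450). Apoc1, an apolipoprotein, fell from 0.489 ± 0.168 to 0.170 ± 0.0870 CPM, also with overlap (log2 fold change -1.49, standard error 0.49, edgeR adjusted p = 0.0250). Furin and Apoc1 each failed to pass in 5 of the 8 fits that left out 1 library, with edgeR adjusted p values of up to 0.0951 and 0.0681. Gpihbp1, which holds Lpl on capillary endothelium, had no count in any library, which allows up to 3 counts per library by counting error alone, and Angptl4, an inhibitor of both lipases, had between 0 and 10 counts per library.

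Lipg takes its name from endothelium, and endothelial markers were measured beside it. Emcn had no count in any library, Cdh5 reached at most 0.203 CPM, and the 8 endothelial markers together (Cdh5, Kdr, Tek, Tie1, Emcn, Plvap, Egfl7 and Stab2) summed to 5.43 to 6.62 CPM in the WT and 6.76 to 11.9 CPM in the Cxcr2-/- libraries. This sum was higher in every Cxcr2-/- than in every WT library (exact permutation test, two-sided, p = 0.0286, the smallest that 4 against 4 can give, n = 4 each; adjusted p = 0.0629 over 11 marker lists). Of its 4 genes tested, Tie1 and Egfl7 rose, both with overlapping groups. The B cell, T cell, erythroid, eosinophil, platelet and adipocyte marker sums did not separate the groups, at exact permutation p values (two-sided, n = 4 each) of 0.0571, 0.514, 0.400, 0.200, 0.0857 and 0.686, and dendritic cell markers were lower, at 9.14 to 28.6 CPM in the WT and 5.81 to 8.65 CPM in the Cxcr2-/- libraries. Lipg was at 180.5 to 261 CPM in the Cxcr2-/- libraries, and the part of endothelial or other cells in this level was not tested. Summed precursor markers in Cxcr2-/- replicates 1 to 4 were 842, 937, 1039 and 1186 CPM, and Lipg was at 261, 199.7, 239 and 180.5 CPM in the same replicates. Single precursor markers differed in their order, with Mki67 at 545, 600, 572 and 557 CPM and Mpo at 19.1, 20.2, 81.2 and 146 CPM. The part of precursors in the level of Lipg was not tested.

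The genes with the profile most like that of Lipg were found as those with the smallest Euclidean distance between profiles of log2 (CPM + 1) over the 8 libraries, each profile centred on its own mean, among 11130 genes. They were Fam20c (distance 2.16), Prok2 (2.36), Kcnn3 (2.42), Ggt1 (2.42) and Prtn3 (2.99), where the median distance over all genes compared was 7.37. Fam20c encodes a kinase of secreted proteins, Prok2 a secreted chemoattractant peptide, Kcnn3 a calcium-activated potassium channel, Ggt1 gamma-glutamyltransferase and Prtn3 the primary granule protease proteinase 3. Fam20c was at 104, 69.3, 89.6 and 62.7 CPM in Cxcr2-/- replicates 1 to 4, in the same order of replicates as Lipg. Prtn3 was at 20.4, 17.5, 63.5 and 92.1 CPM in the same replicates, lower in replicates 1 and 2 than in 3 and 4. The distance is set mostly by the difference between the genotypes, which chose Lipg.

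**Figure D2:**
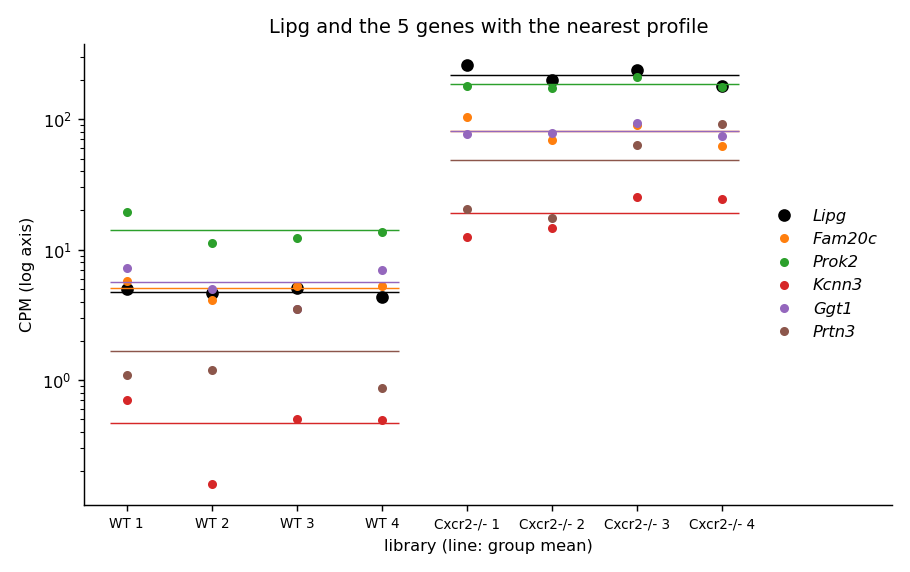
CPM (vertical log axis) of Lipg (black) and of the 5 genes with the nearest profile in each library (horizontal axis), with lines at the group means. Lipg sits at 4.34 to 5.08 CPM in the WT and 180.5 to 261 CPM in the Cxcr2-/- libraries, and Prtn3 spreads from 17.5 to 92.1 CPM among the Cxcr2-/- libraries.

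The first enzyme of droplet lipolysis fell. Pnpla2 (ENSMUSG00000025509, chromosome 7 from 141455198 to 141460743, forward strand) was at 271, 232, 237 and 261 CPM in the WT replicates and at 144, 104, 146 and 129.6 CPM in the Cxcr2-/- replicates. Its groups lay well apart, with means of 250.2 ± 18.9 and 131 ± 19.2 CPM (SD, n = 4 each), 1.91-fold lower with the deletion (log2 fold change -0.93, standard error 0.12, edgeR adjusted p = 3.90e-05). Abhd5, the protein that activates Pnpla2 on the droplet, rose from 94.0, 100.4, 97.8 and 112 CPM in WT to 160.3, 152, 155 and 156 CPM in Cxcr2-/- replicates (log2 fold change 0.63, standard error 0.09, edgeR adjusted p = 7.95e-05). The Cxcr2-/- values of Abhd5 differed little between mice and stood above all WT values. G0s2, the small protein that inhibits Pnpla2, was at 59.6, 51.5, 77.5 and 54.6 CPM in the WT and 48.2, 28.3, 48.8 and 43.8 CPM in the Cxcr2-/- replicates and fell (log2 fold change -0.52, standard error 0.17, edgeR adjusted p = 0.0244), but without WT replicate 3 its edgeR adjusted p was 0.0749. Hilpda, another inhibitor of Pnpla2, was near 1.08 CPM in WT and was at 0.126, 0.111, 0.813 and 1.02 CPM in Cxcr2-/- replicates, which split into low and WT-like values, and it did not pass (log2 fold change -1.05, standard error 0.56, edgeR adjusted p = 0.148). Set against the lipase within each library, Abhd5 had 0.347, 0.433, 0.413 and 0.428 counts per Pnpla2 count in the WT replicates and 1.11, 1.45, 1.07 and 1.21 in the Cxcr2-/- replicates, a mean of 0.405 ± 0.0398 against 1.21 ± 0.172. G0s2 had 0.220, 0.222, 0.327 and 0.209 counts per Pnpla2 count in WT and 0.334, 0.271, 0.336 and 0.338 in Cxcr2-/- replicates, and these overlapped. Both ratios were formed after the values were seen and were not tested.

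Hormone-sensitive lipase and monoglyceride lipase, the later enzymes of the same pathway, moved less. Lipe (ENSMUSG00000003123, chromosome 7 from 25379527 to 25398710, reverse strand) was at 77.5, 71.0, 77.5 and 77.3 CPM in the WT and 62.8, 49.9, 59.8 and 55.5 CPM in the Cxcr2-/- replicates. It fell without overlap, by less than 1.5-fold (log2 fold change -0.41, standard error 0.09, edgeR adjusted p = 0.00262). In GENCODE M21 an antisense gene, 4732471J01Rik, overlaps 918 bases of Lipe exons on the opposite strand and held 2741 counts over the 8 libraries, and the strand setting of the counting is not given in the sources used here. Mgll (ENSMUSG00000033174, chromosome 6 from 88724412 to 88828360, forward strand) was at 64.5, 58.8, 55.9 and 65.3 CPM in the WT and 74.6, 67.0, 48.7 and 46.0 CPM in the Cxcr2-/- replicates. Replicates 1 and 2 were above and replicates 3 and 4 below all WT values, and the means hardly differed, at 61.1 ± 4.53 and 59.1 ± 13.9 CPM (log2 fold change -0.05, standard error 0.14, edgeR adjusted p = 0.802). The sign of its log2 fold change turned without Cxcr2-/- replicate 3 or 4, to 0.019 and 0.034.

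Lysosomal acid lipase fell as well. Lipa (ENSMUSG00000024781, chromosome 19 from 34492318 to 34527474, reverse strand) was at 131, 110.4, 105 and 124 CPM in the WT and 61.4, 71.7, 66.4 and 72.4 CPM in the Cxcr2-/- replicates, 1.73-fold lower without overlap (log2 fold change -0.79, standard error 0.10, edgeR adjusted p = 3.86e-05). Macrophages are rich in Lipa and Lpl, and markers of macrophages and monocytes moved in both directions. Their 14 genes summed to 706 to 824 CPM in the WT and 848 to 976 CPM in the Cxcr2-/- libraries (two-sided p = 0.0286 from an exact permutation test, n = 4 each, adjusted p = 0.0629 over the 11 lists, and p = 0.0857 with scaling by total counts). This higher sum rested on the monocyte marker Ly6c2, which rose from 239 ± 35.1 to 627 ± 38.4 CPM. Without Ly6c2, an alternative chosen after the values were seen, the other 13 genes summed to 458 to 554 CPM in the WT and 215 to 366 CPM in the Cxcr2-/- libraries, lower in every Cxcr2-/- library (exact permutation test, two-sided, p = 0.0286, n = 4 each). Csf1r made up most of that sum, at a mean of 442 of 506 CPM in WT and 232 of 287 in Cxcr2-/- libraries. Ly6c2, F13a1 and Mertk rose, and 3 genes fell. These were Marco, Adgre1 (F4/80, which the sort gated out), at 30.6 ± 4.59 CPM in the WT and 12.3 ± 3.17 CPM in the Cxcr2-/- libraries, and Csf1r, at 442 ± 41.1 and 232 ± 42.1 CPM. None of the 14 was at 0 in all libraries. A further fit took the mean level of B cell, T cell, macrophage, monocyte and erythroid markers as a covariate, Ly6c2 included. In this fit the log2 fold change was -0.80 for Lipa and -2.24 for Lpl, and both passed. The covariate averages markers that rose and markers that fell, and its values overlapped between the groups, so it cannot separate out a macrophage part. Whether macrophages contributed to the falls of Lipa and Lpl was not tested.

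The droplet coat proteins rose. Plin2 (ENSMUSG00000028494, chromosome 4 from 86648386 to 86670060, reverse strand), the perilipin bound to droplets in most cells, was at 93.7, 117, 87.0 and 89.0 CPM in the WT and 153, 119, 132 and 132 CPM in the Cxcr2-/- replicates. The highest WT value came close to the lowest Cxcr2-/- value without reaching it, and the rise was 1.39-fold (log2 fold change 0.47, standard error 0.11, edgeR adjusted p = 0.00494). Plin3 (ENSMUSG00000024197, chromosome 17 from 56277476 to 56292873, reverse strand), a perilipin that moves from the cytosol onto new droplets, was at 48.3, 38.7, 42.6 and 44.0 CPM in the WT and 102, 89.5, 85.5 and 78.6 CPM in the Cxcr2-/- replicates. Its groups were far apart and the rise was 2.05-fold (log2 fold change 1.04, standard error 0.10, edgeR adjusted p = 6.99e-06). The count of Plin3 per count of Plin2 was 0.515, 0.330, 0.489 and 0.494 in the WT replicates and 0.669, 0.751, 0.649 and 0.596 in the Cxcr2-/- replicates, without overlap, a ratio that was formed after the values were seen and was not tested. Plin5, the perilipin of oxidative tissues, rose from 6.12, 5.59, 5.75 and 5.47 to 12.1, 10.2, 12.1 and 8.51 CPM in replicates 1 to 4 (log2 fold change 0.90, standard error 0.14, edgeR adjusted p = 2.88e-04). Plin4 was at 5.83 ± 0.645 CPM in the WT and 7.62 ± 2.07 CPM in the Cxcr2-/- libraries and did not pass (log2 fold change 0.39, standard error 0.19, edgeR adjusted p = 0.119), and Plin1, the perilipin of adipocytes, had no count in any library.

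**Figure D3:**
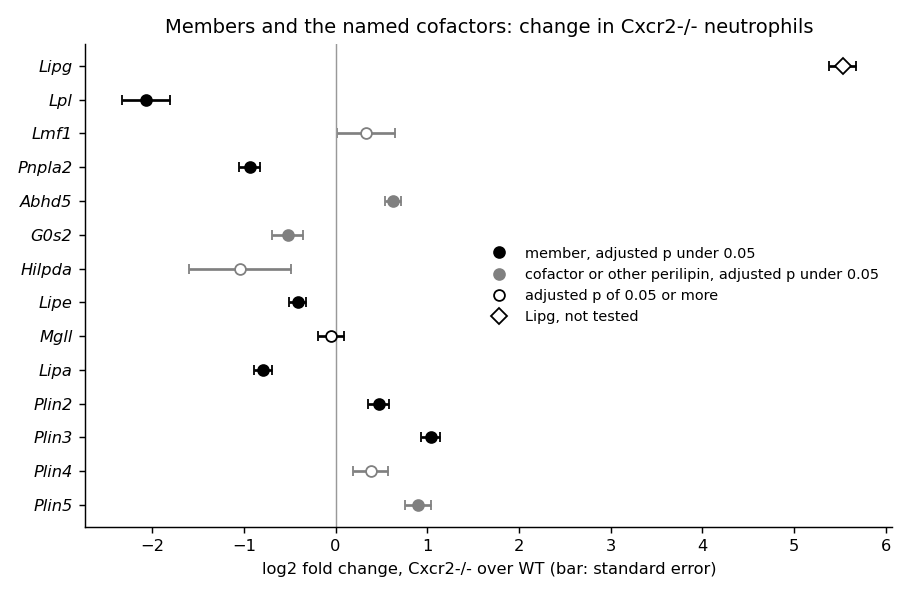
Log2 fold change, Cxcr2-/- over WT (horizontal axis), with its standard error for the 8 members (black) and for the cofactors and other perilipins (grey). Filled symbols had an edgeR adjusted p under 0.05, open circles did not, and the open diamond is Lipg at 5.53, which was not tested. Pnpla2 is at -0.93 and its activator Abhd5 at 0.63.

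Promoters are shown for a pair of members that fell, Lipa and Pnpla2, and for the perilipins that rose. Each run holds the 250 bases before the RefSeq transcription start in GRCm38.p6, on the strand of the gene. The windows are chr19:34527475-34527724 (reverse strand), chr7:141454938-141455187 (forward strand), chr4:86670060-86670309 (reverse strand) and chr17:56290512-56290761 (reverse strand), the last inside an intron of a longer Plin3 transcript of GENCODE M21. Capitals mark matches, on either strand, to 6 motifs, namely the E-box CACGTG, the AP-1 site TGANTCA, the GC box GGGCGG, the ETS core GGAAGT, the C/EBP core TTNNGNAA and the PPAR and RXR repeat AGGTCANAGGTCA.
Lipa: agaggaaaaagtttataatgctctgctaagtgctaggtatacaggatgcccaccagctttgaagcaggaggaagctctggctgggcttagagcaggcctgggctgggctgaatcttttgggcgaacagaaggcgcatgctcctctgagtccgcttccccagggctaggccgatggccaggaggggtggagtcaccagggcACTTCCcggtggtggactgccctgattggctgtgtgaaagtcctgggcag
Pnpla2: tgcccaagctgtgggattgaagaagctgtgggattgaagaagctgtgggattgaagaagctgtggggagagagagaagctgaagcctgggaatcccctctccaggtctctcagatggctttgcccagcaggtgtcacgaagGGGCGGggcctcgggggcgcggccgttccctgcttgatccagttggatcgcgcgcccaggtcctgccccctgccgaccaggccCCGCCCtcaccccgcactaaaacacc
Plin2: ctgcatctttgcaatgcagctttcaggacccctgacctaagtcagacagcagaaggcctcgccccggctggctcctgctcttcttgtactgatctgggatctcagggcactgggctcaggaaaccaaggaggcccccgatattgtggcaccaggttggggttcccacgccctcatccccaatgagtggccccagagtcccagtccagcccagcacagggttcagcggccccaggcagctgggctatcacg
Plin3: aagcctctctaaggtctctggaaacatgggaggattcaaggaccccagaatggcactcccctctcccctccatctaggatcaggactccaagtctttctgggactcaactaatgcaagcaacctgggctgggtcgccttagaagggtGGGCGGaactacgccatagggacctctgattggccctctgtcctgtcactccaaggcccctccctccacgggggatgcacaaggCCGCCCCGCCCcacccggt

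Pnpla2 held 2 matches to the GC box and Plin3 held 3, and 32.7% of all 32851 mouse promoter windows of the same length held at least 1. Lipa held 1 match to the ETS core, which 19.7% of all windows held. Plin2 held no match to these letters. Over all windows, 6.02% held the E-box, 6.75% the AP-1 site, 36.8% the C/EBP core and 0.0335% the PPAR and RXR repeat. A match describes the letters only.

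Levels between genes were compared per length, as CPM divided by the kilobases of all annotated exons of the gene. In WT neutrophils Pnpla2 led with 82.8 ± 6.25 CPM per kb (SD, n = 4), followed by Plin2 with 27.5 ± 3.94, Lipa with 17.3 ± 1.77, Lipe with 12.9 ± 0.544, Mgll with 12.0 ± 0.893, Plin3 with 11.5 ± 1.05, Lipg with 1.01 ± 0.0739 and Lpl with 0.920 ± 0.191 CPM per kb. In that order the libraries of Lipe overlapped with those of Mgll, those of Mgll with those of Plin3, and those of Lipg with those of Lpl. The other neighbours in the order did not overlap. In Cxcr2-/- neutrophils Lipg, with 46.7 ± 7.78 CPM per kb, Pnpla2, with 43.3 ± 6.34, and Plin2, with 38.2 ± 4.02, came first. Lipg overlapped with Pnpla2 and Pnpla2 with Plin2, but Plin2 did not overlap with Plin3. Plin3 followed with 23.5 ± 2.65 CPM per kb, then Mgll with 11.6 ± 2.75, Lipa with 10.0 ± 0.759 and Lipe with 9.68 ± 0.953, which overlapped, and Lpl was last with 0.220 ± 0.0859. Divided by the longest transcript instead, Lipg ranked 2 of 8 in Cxcr2-/- and 8 of 8 in WT neutrophils, against 1 and 7 with all exons.

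**Figure D4:**
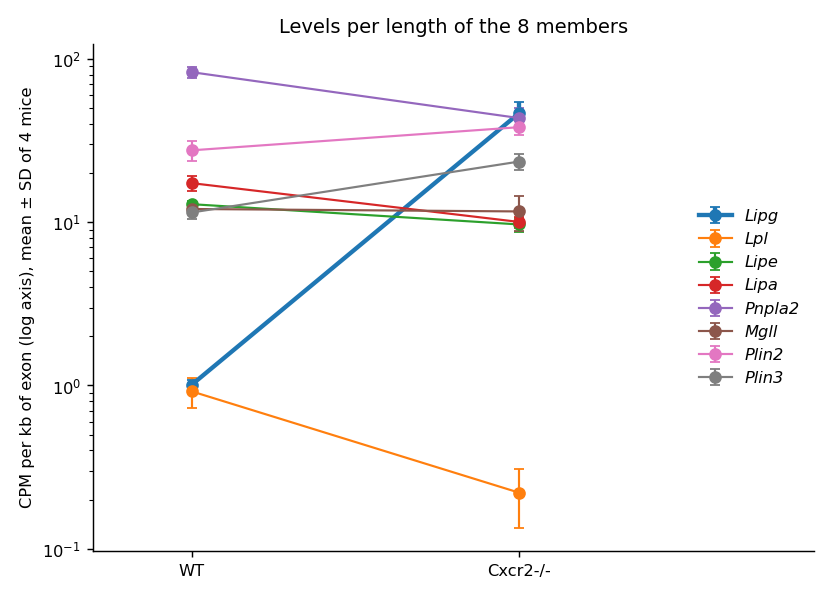
Level per length (CPM per kb of exon, vertical log axis) of the 8 genes in WT and Cxcr2-/- neutrophils, mean and SD of 4 mice. Lipg goes from 1.01 ± 0.0739 to 46.7 ± 7.78 CPM per kb, to the level of Pnpla2 in the same libraries.

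Around Lipg, 145 other genes of lipid handling were listed in 9 groups, the 7 other members among them, and 109 were tested. Of these, 40 rose and 21 fell (36.7% and 19.3%, beside 23.7% and 21.0% of all genes). The calls were 21 higher and 15 lower (19.3% and 13.8%, beside 15.7% and 15.7% of all genes). The median log2 fold change of the 109 was 0.27. With upper-quartile normalization 30 rose and 23 fell. The number called higher was 11 with upper-quartile normalization and 13 with scaling by total counts.

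Among the 20 intracellular lipases listed, 15 were tested, with a median log2 fold change of -0.02. Of the 15, 5 rose and 5 fell (33.3% and 33.3%, beside 23.7% and 21.0% of all genes). Called were 1 higher and 4 lower (6.67% and 26.7%, beside 15.7% and 15.7% of all genes). With upper-quartile normalization 2 rose and 5 fell. Ces1d, a carboxylesterase that hydrolyses triglyceride, had the largest fall, from 8.78, 11.1, 9.62 and 5.93 CPM in WT to 0.784, 0.719, 0.305 and 0.292 CPM in Cxcr2-/- replicates (log2 fold change -4.08, standard error 0.33, edgeR adjusted p = 1.32e-06). Pnpla1, an acyltransferase of skin ceramide synthesis in the Pnpla2 family, rose from 0.906, 0.764, 0.882 and 1.27 to 5.74, 5.73, 7.60 and 5.25 CPM (log2 fold change 2.67, standard error 0.22, edgeR adjusted p = 1.46e-06). Pnpla7, a lysophospholipase of the same family, fell from 382 ± 30.1 to 245 ± 17.4 CPM (log2 fold change -0.64). Of the 20 droplet coat and lipolysis genes, 14 were tested, and the median was 0.33. Of the 14, 7 rose and 2 fell (50.0% and 14.3%, beside 23.7% and 21.0% of all genes). None was called lower and 4 were called higher (28.6%, beside 15.7% of all genes). The 4 were Plin3, Plin5, Abhd5 and Bscl2 (seipin, which shapes new droplets), at 14.3 ± 1.08 CPM in the WT and 22.7 ± 2.52 CPM in the Cxcr2-/- libraries (log2 fold change 0.66, standard error 0.11, edgeR adjusted p = 3.93e-04).

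The genes that build triglyceride moved in both directions. Of 17 listed, 15 were tested, with a median log2 fold change of 0.30. Of the 15, 7 rose and 3 fell (46.7% and 20%, beside 23.7% and 21.0% of all genes). Called were 6 higher and 3 lower (40% and 20%, beside 15.7% and 15.7% of all genes). With upper-quartile normalization 6 rose and 3 fell. Agpat2, an acyltransferase that makes phosphatidic acid, rose from 84.5 ± 7.92 to 168 ± 30.9 CPM (log2 fold change 0.99, standard error 0.13, edgeR adjusted p = 5.33e-05), and Mogat2, which acylates monoglyceride, from 2.19 ± 0.251 to 3.98 ± 0.554 CPM (log2 fold change 0.86). Agpat5, a mitochondrial relative of Agpat2, fell from 18.8 ± 1.53 to 7.20 ± 0.755 CPM (log2 fold change -1.39, standard error 0.12, edgeR adjusted p = 2.34e-06), and the phosphatidate phosphatase Lpin2 fell from 196 ± 22.4 to 117 ± 4.91 CPM (log2 fold change -0.74). Dgat2, one of the enzymes of the last step, rose from 121 ± 17.1 to 188 ± 20.7 CPM (edgeR adjusted p = 8.78e-04).

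Mitochondrial oxidation is a route that freed fatty acids can take, and only the RNA of its genes was measured here. Of 20 genes listed, 19 were tested, with a median log2 fold change of 0.47. Of the 19, 10 rose and none fell (52.6% rose, where 23.7% of all genes rose and 21.0% fell). Called higher were 5 (26.3%, beside 15.7% of all genes). With upper-quartile normalization 9 rose and none fell. Etfb and Etfa, the subunits of the electron transfer flavoprotein, rose from 0.635 ± 0.204 to 2.13 ± 0.819 and from 5.43 ± 0.815 to 12.4 ± 0.626 CPM, with log2 fold changes of 1.75 and 1.18 (edgeR adjusted p of 9.29e-04 and 2.48e-05). Cpt2, of the carnitine shuttle, rose from 13.8 ± 0.502 to 23.3 ± 2.01 CPM (log2 fold change 0.75, standard error 0.10, edgeR adjusted p = 6.45e-05), and the acyl-CoA dehydrogenase Acadl from 12.2 ± 2.02 to 18.3 ± 0.827 CPM (log2 fold change 0.59, standard error 0.13, edgeR adjusted p = 0.00232). Of 16 genes of fatty acid uptake, binding and activation, 12 were tested, with a median of 0.27. Of the 12, 3 rose and 1 fell (25.0% and 8.33%, beside 23.7% and 21.0% of all genes). The one called higher was Acsl4, the ligase for arachidonic acid, which went from 19.2 ± 1.52 to 30.1 ± 2.42 CPM (log2 fold change 0.65, standard error 0.10, edgeR adjusted p = 2.07e-04).

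**Figure D5:**
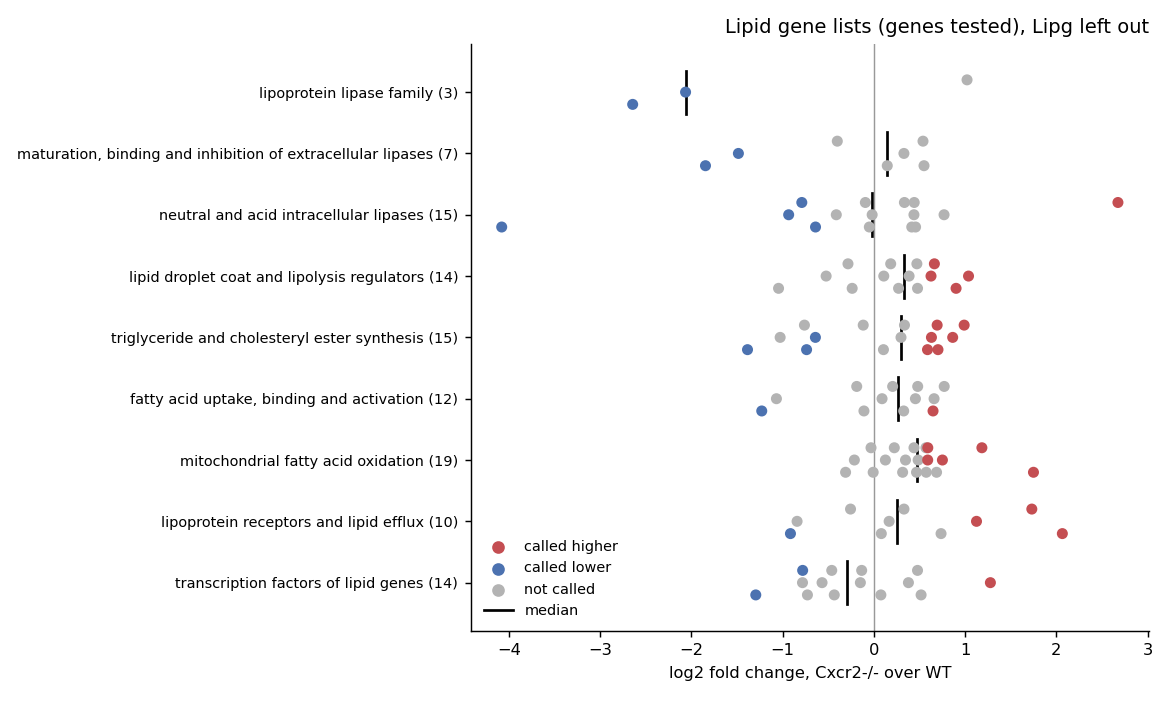
Log2 fold change, Cxcr2-/- over WT (horizontal axis), of each gene tested in 9 lists of lipid genes (rows, number tested in brackets), with the median of each list as a black line. Red and blue points were called higher and lower. The list of mitochondrial fatty acid oxidation has no blue point and a median of 0.47, and Ces1d lies farthest to the left at -4.08.

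Scarb1, the receptor for the high-density lipoprotein that Lipg acts on, was at 13.1, 8.98, 11.5 and 11.3 CPM in the WT and 46.7, 46.8, 52.6 and 41.2 CPM in the Cxcr2-/- replicates and rose (log2 fold change 2.07, standard error 0.13, edgeR adjusted p = 1.79e-07). The sterol exporter Abcg1 fell from 173 ± 21.1 to 91.7 ± 10.3 CPM (log2 fold change -0.91, standard error 0.11, edgeR adjusted p = 3.91e-05). Of 11 genes of lipoprotein uptake and lipid efflux, 10 were tested, with a median of 0.25. Of the 10, 4 rose and 1 fell (40.0% and 10.0%, beside 23.7% and 21.0% of all genes), and with upper-quartile normalization 2 rose and 2 fell. Of 16 transcription factors of lipid genes, 14 were tested, with a median of -0.29. Of the 14, 3 rose and 4 fell (21.4% and 28.6%, beside 23.7% and 21.0% of all genes). Those called were Srebf2, which drives sterol synthesis, from 55.6 ± 3.20 to 135 ± 33.4 CPM (log2 fold change 1.28, standard error 0.15, edgeR adjusted p = 2.66e-05), and, lower, Mitf and Rxra, with log2 fold changes of -1.29 and -0.78.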

How the data were processed

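Total RNA of spleen neutrophils was depleted of rRNA and made into directional libraries, 1 per mouse, 4 per genotype. The authors deposited raw HTSeq counts per Ensembl gene for each library, after a FastQC check, trimming and removal of low quality reads and alignment to mm10 with STAR. Tool versions, the annotation release and the strand setting of the counting are not given in the sources used here. Rows that name no gene were left out, among them reads that met no gene. Identifiers were matched without version to GENCODE M21 (GRCm38), in which 52133 of 55414 were found and whose entries are mostly older versions, and those without an entry held 1.42% of counts.

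Counts were fitted with edgeR 4.0.16 in R 4.3.3 (filterByExpr, TMM, quasi-likelihood test, Benjamini-Hochberg adjustment over 16778 genes) with genotype as the only term. The fit was tested on simulated counts. The common biological coefficient of variation was 0.202. A gene was called at an adjusted p under 0.05 and at least 1.5-fold. Replicate counts differed by more than sampling noise in every pair, and same-numbered WT and Cxcr2-/- mice did not deviate together (correlations 0.116, -0.188, 0.158 and -0.262), so genotypes were not paired. Replicates are separate mice, and p-values measure the spread between them.

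Genes were named by rule, as the 8 members, their cofactors Abhd5, G0s2, Hilpda, Lmf1, Gpihbp1, Angptl4, Plin1, Plin4 and Plin5, up to 4 called genes without overlap and with the largest change in each lipid list, and the 5 genes with the profile nearest to Lipg. Lipc, Lmf2, Furin, Apoc1, Pnpla7 and Dgat2 were named after their values were seen. The members and all lists were chosen with earlier results of these data known. Alternatives were DESeq2 1.42.0, other scalings and filters, a replicate block, a covariate of other cells and leaving out each library. Summed markers of 11 cell types were compared by exact permutation tests. Promoter windows came from RefSeq (GRCm38.p6), which held 6 of the 8 members, and none was used for Lipg and Lpl. A comparison of the protein sequences was not run.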

Additional observations from a re-analysis of the deposited data

Results flagged for a closer look

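Of 80 groups of 4 libraries checked for a library far from the others, 2 had one, and chance alone flags about 5% of groups. In WT, replicate 2 had 71.0 CPM of Lipe where the other WT libraries had between 77.3 and 77.5 CPM, so that the mark rests on the closeness of the other values. The Cxcr2-/- libraries were all below this value. WT replicate 1 had 162 CPM of Lpin2, the phosphatidate phosphatase, where the other WT libraries had 205 to 208 CPM, and it was still above every Cxcr2-/- library.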

How the results depend on the processing

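In all 16 alternative fits, 6 of the 7 members other than Lipg passed, and the log2 difference of Lipg lay between 5.41 and 5.60. The highest adjusted p values in those fits (edgeR or DESeq2) were 3.01e-04 for Lpl, 0.0101 for Lipe, 2.99e-04 for Lipa, 2.43e-04 for Pnpla2, 0.0216 for Plin2 and 7.17e-05 for Plin3. With the replicate block, in which same-numbered mice are paired, 6 members passed, 2470 genes were called higher and 2518 lower, and no call of a named gene changed. Lipid list genes called higher numbered 21 in the main analysis, 11 with upper-quartile normalization, 13 with scaling by total counts and 40 without the fold threshold, which also raised the genes called higher among all tested from 2628 to 3969. Divided by the longest transcript, Lipg ranked 8 in WT and 2 in Cxcr2-/- neutrophils. With 1 library left out at a time, the log2 fold change ran from -0.18 to 0.034 for Mgll, which turned positive without Cxcr2-/- replicate 3 (0.019) or 4, and from -0.046 to 0.50 for Lmf1, which turned negative without Cxcr2-/- replicate 3. Neither gene passed, and the causes were not tested. G0s2 had an adjusted p of 0.0749 (edgeR) without WT replicate 3, and Hilpda one of 0.0376 without Cxcr2-/- replicate 4. The log2 ratio of summed macrophage and monocyte markers was -0.82 without Ly6c2, an alternative chosen after seeing the data, since that gene made up most of the Cxcr2-/- sum. Csf1r in turn made up most of the sum without Ly6c2. At 4 mice per genotype, genes near 1 CPM such as Hilpda, Lmf1 and Apoc1 rest on few counts.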
